A study of Homo sapiens with 6 samples.

Results

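The mitochondrial chromosome carries 37 of the 58978 genes in the deposited count table, taken here as every gene the table places on chromosome MT. They are 13 mRNA genes, 2 ribosomal RNA genes and 22 tRNA genes, and none has an intron. They were measured by RNA-seq in HT29, an established human colon cancer cell line with epithelial character. The shFITM2 cells carried a short hairpin RNA that knocks down FITM2, an endoplasmic reticulum protein needed for lipid droplets to bud (3 libraries). The shCTRL cells carried a control hairpin and are labelled WT (3 libraries). Both groups are labelled untreated and grew in McCoy's 5A medium with serum and antibiotics. Libraries came from total RNA, isolated with Trizol, through the NEBNext Ultra Directional kit. The number of hairpins, whether a line is a clone or a pool, and whether poly(A) RNA was selected or ribosomal RNA removed were not given in the sources used here.

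The mitochondrial chromosome is transcribed from both strands into long RNAs that span many genes. Most mRNAs and rRNAs are separated by tRNAs, and cutting the tRNAs out releases the RNAs between them, after which most mRNAs receive short poly(A) tails. The proteins are core subunits of respiratory complexes I, III and IV and of the ATP synthase, and the rRNAs and tRNAs serve the mitochondrial ribosome that makes them. Nuclear genes supply the polymerase, the processing enzymes and the factors that stabilise these RNAs.

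Short sequences show why neighbouring genes here cannot always be separated by counting reads. The first 4 lines are tRNAs of the minus strand. In the first pair the capital A is 1 base, MT:5826-5826, which ends MT-TY and begins MT-TC. The other 2 tRNAs, MT-TN and MT-TE, share no base with a neighbour. In the MT-ATP8/MT-ATP6 line the capitals mark the start codon of MT-ATP6 and the stop codon of MT-ATP8, in 46 shared bases at MT:8527-8572. In the MT-ND4L/MT-ND4 line, MT:10740-10786, the capitals mark the 7 shared bases at MT:10760-10766. All are on GRCh38, from GENCODE release 29 transcripts, written 5′ to 3′ on the strand of the gene.
MT-TY: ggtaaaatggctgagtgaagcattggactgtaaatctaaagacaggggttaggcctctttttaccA
MT-TC: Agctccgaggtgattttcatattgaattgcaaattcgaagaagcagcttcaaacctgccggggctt
MT-TN: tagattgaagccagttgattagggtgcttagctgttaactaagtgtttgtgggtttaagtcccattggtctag
MT-TE: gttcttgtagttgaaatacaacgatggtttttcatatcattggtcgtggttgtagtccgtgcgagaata
MT-ATP8/MT-ATP6 overlap: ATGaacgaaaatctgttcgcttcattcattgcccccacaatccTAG
MT-ND4L/MT-ND4 junction: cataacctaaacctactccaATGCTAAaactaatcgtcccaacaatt

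Counts summed to between 16964075 and 18263911 in the shFITM2 libraries and between 17176487 and 18855731 in the shCTRL libraries. FITM2 had 4.82, 5.97 and 4.95 CPM (counts per 1000000, scaled to TMM library sizes) in shFITM2 cells, against 13.2, 10.5 and 10.4 CPM in shCTRL cells. Its log2 fold change, shFITM2 minus shCTRL as everywhere below, was -1.12 ± 0.157 (SE, n = 3 each; Benjamini-Hochberg adjusted p = 0.000242 in edgeR's quasi-likelihood test). All 10 intestinal epithelial markers passed the filter on low counts. Of these, 7 were called higher and 1 lower, with a median log2 fold change of 0.36, and 3 higher and 2 lower under the offset for GC content described below, with a median of -0.0096. Across all tested genes 24.2% were called higher and 24.5% lower, and 11.7% higher and 17.5% lower under that offset. The 10 markers had summed levels of 14295 to 15097 CPM in shFITM2 cells and 10413 to 12593 CPM in shCTRL cells, a difference whose part in the results below was not tested. The 5 fibroblast markers summed to 1.26 to 1.53 CPM in shFITM2 cells and 1.06 to 2.81 CPM in shCTRL cells, with COL1A2 at 0 reads in all libraries. The 4 leukocyte markers summed to 9.72 to 13.1 CPM in shFITM2 cells and 9.24 to 12.1 CPM in shCTRL cells, nearly all of it CD14, while PTPRC had 0 reads in 4 of the 6 libraries. The 3 endothelial markers summed to 0.766 to 1.21 CPM in shFITM2 cells and 0.794 to 1.40 CPM in shCTRL cells. The library shCTRL 3 stood apart from the other shCTRL libraries. Mitochondrial genes that gained a call without it, in the fit with no offset, are given both ways. Under the GC offset 10 mitochondrial genes were called higher and 7 lower without it, against 4 and 5 with all libraries. Fold changes of nuclear genes are given with all libraries only. Fits without shCTRL 3 have only shCTRL 1 and 2 as controls, so their p-values leave out the spread that shCTRL 3 brings. Over the 15 mRNAs and rRNAs, the chi-square of the counts per gene was 1620 and 2197 for shCTRL 3 against the other shCTRL libraries, 194 between those, and 14.4 to 20.4 among shFITM2 libraries.

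The mitochondrial chromosome supplied a smaller share of all counts in shFITM2 cells than in shCTRL cells. Its share was 6.82%, 7.07% and 7.30% in shFITM2 libraries, against 9.21%, 8.30% and 7.98% in shCTRL libraries. The groups did not overlap, and the difference of means was -1.43 percentage points (exact two-sided permutation test, p = 0.1, the smallest that 3 against 3 libraries can give). Relative to the counts of nuclear protein-coding genes alone, the mitochondrial counts came to 7.75% ± 0.289 in shFITM2 cells and 9.48% ± 0.782 in shCTRL cells (SD, n = 3 each). Nuclear genes in the GC range of the mitochondrial mRNAs and rRNAs had a median log2 fold change of -0.26 (4825 genes). The part of GC content in the smaller share was not tested. In bulk RNA, fewer cells with a given level and less of the RNA in each cell cannot be told apart.

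Within the mitochondrial counts, rRNA and tRNA held a larger share in shFITM2 cells and mRNA a smaller one. The rRNA genes held 10.8%, 10.9% and 10.8% of mitochondrial counts in shFITM2 libraries, against 8.17%, 8.62% and 9.04% in shCTRL libraries. The mRNA genes held 88.8% ± 0.0419 in shFITM2 cells and 91.2% ± 0.441 in shCTRL cells. The tRNA genes held 0.354% ± 0.0292 in shFITM2 cells and 0.179% ± 0.0151 in shCTRL cells (SD, n = 3 each). None of these shares overlapped between groups, and each had p = 0.1, also after adjustment over the 3 classes (exact two-sided permutation test). By CPM, the groups did not overlap for 59% of all tested genes. The class shares do not depend on how the libraries are scaled to each other. They sum to the whole, so they are not independent of each other. The tRNA class did not move as one: of its 10 tested genes, 6 had a log2 fold change above 0 and 4 below it. MT-TC alone had 2205, 2055 and 1713 of the 4640, 4576 and 3972 tRNA counts in shFITM2 libraries. In shCTRL libraries it had 456, 323 and 676 of 2932, 2990 and 2356.

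**Figure D1:**
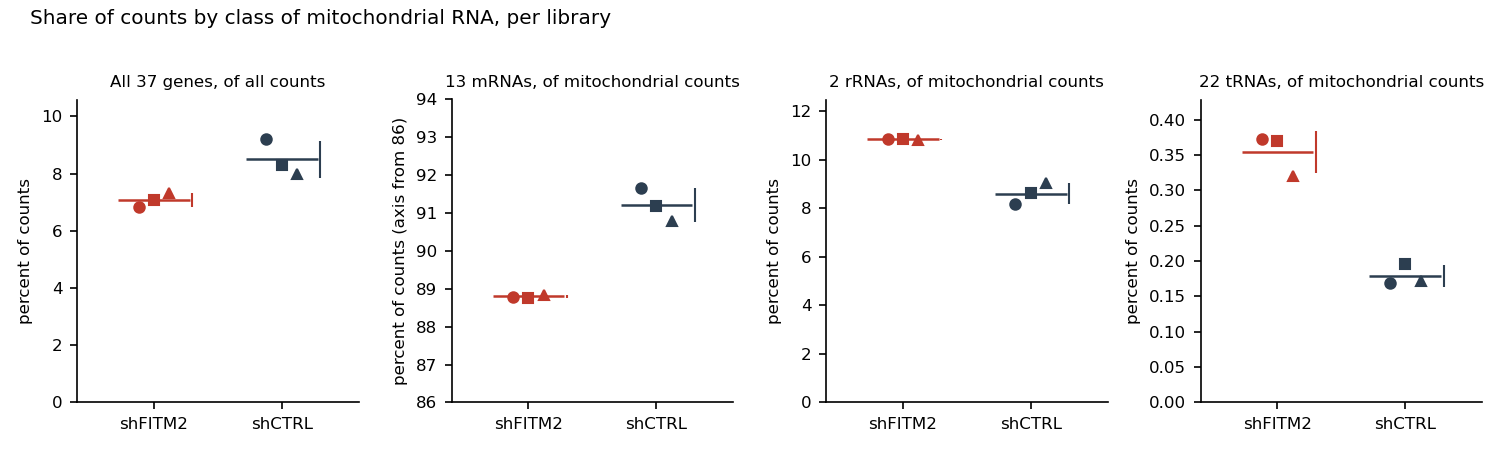
Percent of counts per library for all 37 mitochondrial genes (of all counts) and for the 13 mRNAs, 2 rRNAs and 22 tRNAs (of mitochondrial counts), with shFITM2 left of shCTRL. Circles, squares and triangles are replicates 1, 2 and 3, lines are means and bars are SDs; the mRNA axis starts at 86%, and the shFITM2 libraries lie at 88.8%, below every shCTRL library.

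Of the 37 genes, 25 had enough reads to be tested: all 13 mRNAs, both rRNAs and 10 of the 22 tRNAs. Of these 25, 2 rose in shFITM2 cells, 9 fell and 14 did not pass an adjusted p of 0.05 (edgeR's quasi-likelihood test). Across all 14809 tested genes 48.7% were called, 24.2% higher and 24.5% lower, so 11 calls among 25 genes is a share near the background. Of the 13 mRNAs, MT-ATP8 rose, 8 fell and 4 did not pass. The tRNA MT-TC rose and the tRNA MT-TE fell, and neither rRNA passed. Their median log2 fold change was -0.32 for the mRNAs and -0.19 for the 15 mRNAs and rRNAs together, against -0.0002 for all tested genes. The groups of libraries did not overlap for 12 of the 25, with shFITM2 above in 3 and below in 9. Across all tested genes that share was 59%, with shFITM2 above in 29.1% and below in 29.9%.

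Fold changes across the transcriptome followed GC content, so each gene was also fitted with an offset for the GC content of its transcript. With this offset 29.2% of all tested genes were called, 11.7% higher and 17.5% lower. Of the mitochondrial genes, 4 were called higher (MT-TC, MT-ATP8, MT-RNR2 and MT-ND3) and 5 lower (MT-ND2, MT-ATP6, MT-ND4, MT-ND5 and MT-CYB). Both fits called 2 of them higher and 5 lower. Under the GC offset some calls ended when 1 library was left out (edgeR adjusted p): MT-ND2 without any shFITM2 library or shCTRL 1 (0.0637 to 0.112), MT-ATP6 without shFITM2 1, shFITM2 3 or shCTRL 2 (0.0526 to 0.148), and MT-CYB without shFITM2 1, shFITM2 2, shCTRL 1 or shCTRL 3 (0.0752 to 0.0968). The 15 mRNAs and rRNAs have a GC content of 39.6% to 47.7%. The 4825 nuclear genes within that range had a median log2 fold change of -0.26 (quartiles -0.46 and -0.05), 41.1% of them were called lower and 3.65% higher.

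**Figure D2:**
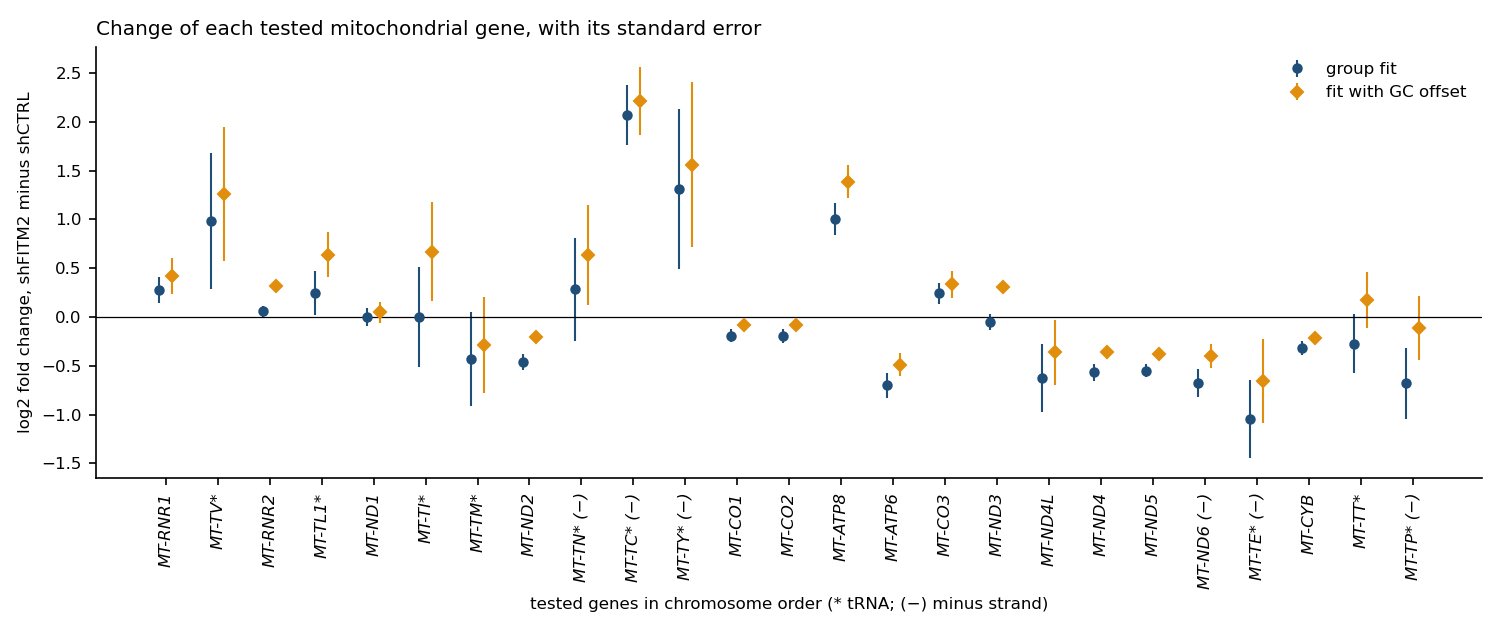
Log2 fold change (shFITM2 minus shCTRL) with its standard error for each tested mitochondrial gene in chromosome order; blue circles are the fit with group alone and orange diamonds the fit with a GC offset. MT-TC (2.07) and MT-ATP8 (1.01) stand above 0 in both fits, and MT-ATP6 (-0.70), MT-ND4 (-0.57) and MT-ND5 (-0.55) below it.

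Complex I, the NADH dehydrogenase that feeds electrons into the respiratory chain, takes 7 subunits from this chromosome. Of its 7 mRNAs, 4 fell in shFITM2 cells and 3 did not pass, where 24.5% of all tested genes and 41.1% of nuclear genes of like GC content fell. The GC offset called 3 lower and 1 higher, where it called 17.5% of all tested genes lower and 11.7% higher. MT-ND5 (ENSG00000198786, MT:12337-14148), an antiporter-like subunit of the membrane arm, had 2353, 2414 and 2563 CPM in shFITM2 cells, against 3837, 3543 and 3336 CPM in shCTRL cells. With no overlap between the groups, the log2 fold change was -0.55 ± 0.0672 (SE, n = 3 each; edgeR adjusted p = 0.000127) and -0.38 under the GC offset (adjusted p = 3.77e-05). MT-ND4 (ENSG00000198886, MT:10760-12137), another antiporter-like subunit, had 7525, 7673 and 7896 CPM in shFITM2 cells, against 12632, 11949 and 9643 CPM in shCTRL cells. Every shFITM2 library was lower than every shCTRL library, with a log2 fold change of -0.57 ± 0.0890 (edgeR adjusted p = 0.000549) and -0.36 under the GC offset (adjusted p = 0.0011). MT-ND4 and MT-ND5 kept their calls under all 25 alternatives run.

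MT-ND2 (MT:4470-5511), the remaining antiporter-like subunit, had 2713, 2866 and 2971 CPM in shFITM2 cells, against 4407, 3891 and 3451 CPM in shCTRL cells. It fell by 0.46 on the log2 scale (SE 0.0834, n = 3 each; edgeR adjusted p = 0.00105) and by 0.20 under the GC offset (adjusted p = 0.0205). MT-ND6 (ENSG00000198695, MT:14149-14673) is the mRNA of the minus strand. It had 848, 820 and 846 CPM in shFITM2 cells, against 1481, 1508 and 1022 CPM in shCTRL cells. The groups did not overlap, and its log2 fold change was -0.67 ± 0.140 (edgeR adjusted p = 0.00599), but -0.40 with an adjusted p of 0.0680 under the GC offset, which ends the call. The strand bias of its bases sets it apart: 35.6% of MT-ND6 is G and 7.05% is C, whereas the other 12 mRNAs hold 6.28% to 16.2% G and 29.5% to 36.0% C. Whether the counting used the strand of the reads is not given in the sources used here. Reads of MT-ND6 and of plus-strand RNA over the same bases therefore cannot be told apart.

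MT-ND1, MT-ND3 and MT-ND4L did not pass the test with all libraries and no offset. MT-ND1, a subunit at the quinone-binding site, had 2055, 2145 and 2219 CPM in shFITM2 cells, against 2183, 1815 and 2411 CPM in shCTRL cells, and a log2 fold change of 0.0022 ± 0.0918 (SE, n = 3 each; edgeR adjusted p = 0.987). MT-ND3, which forms part of the hinge between the arms of the complex, had 653, 716 and 752 CPM in shFITM2 cells, against 798, 741 and 657 CPM in shCTRL cells. On the log2 scale it changed by -0.05 ± 0.0809 (edgeR adjusted p = 0.634) and turned to 0.31 under the GC offset (adjusted p = 0.000387); without shCTRL 3 it was -0.13 (adjusted p = 0.0273). MT-ND4L, a small membrane subunit, had 1013, 1098 and 1115 CPM in shFITM2 cells, against 1937, 2140 and 903 CPM in shCTRL cells. The library shCTRL 3 lay below all shFITM2 libraries and the other shCTRL libraries above them. On the log2 scale the change was -0.63 ± 0.346 with all libraries (edgeR adjusted p = 0.202) and -0.93 without shCTRL 3 (adjusted p = 4.74e-19). Leaving out shCTRL 3 removes the control on the other side, so the smaller p-value lacks that spread and is not taken as evidence of a fall.

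Cytochrome b, from MT-CYB (MT:14747-15887), is the sole complex III subunit made in mitochondria. Its mRNA had 3992, 4132 and 4297 CPM in shFITM2 cells, against 5613, 4699 and 5203 CPM in shCTRL cells. No shCTRL library was as low as any shFITM2 library, and the log2 fold change was -0.32 ± 0.0709 (SE, n = 3 each; edgeR adjusted p = 0.00325) and -0.21 under the GC offset (adjusted p = 0.0156).

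Complex IV, cytochrome c oxidase, takes its 3 core subunits from this chromosome. MT-CO1, which holds the haem groups that reduce oxygen, had the highest count of all 37 genes: 17532, 18086 and 18969 CPM in shFITM2 cells, against 22275, 18982 and 21016 CPM in shCTRL cells. MT-CO2, which receives electrons from cytochrome c, had 8009, 8448 and 8625 CPM in shFITM2 cells, against 10626, 8957 and 9077 CPM in shCTRL cells. Neither overlapped between groups, though for MT-CO1 the highest shFITM2 library lay just below the lowest shCTRL library. The log2 fold change was -0.19 ± 0.0679 for MT-CO1 (SE, n = 3 each; edgeR adjusted p = 0.0364) and -0.19 ± 0.0726 for MT-CO2 (adjusted p = 0.0456). Both calls ended under the GC offset (log2 fold change -0.08 each; adjusted p = 0.348 for MT-CO1 and 0.355 for MT-CO2). They also ended when any shFITM2 library or shCTRL 1 was left out, with adjusted p of 0.0599 to 0.151 for MT-CO1 and 0.0858 to 0.208 for MT-CO2. Scaled to the 13 mitochondrial mRNAs, which puts the median of all genes at 0.30, MT-CO1 and MT-CO2 each had 0.11.

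MT-CO3, the third core subunit, did not pass the test and lay on the other side of 0. It had 7696, 8255 and 8131 CPM in shFITM2 cells, against 6473, 5854 and 8036 CPM in shCTRL cells. The library shCTRL 3 lay among the shFITM2 libraries. The log2 fold change was 0.24 ± 0.104 with all libraries (SE, n = 3 each; edgeR adjusted p = 0.0807) and 0.37 without shCTRL 3 (adjusted p = 7.45e-10). The smaller p-value leaves out the spread that shCTRL 3 brings and is not taken as evidence of a rise.

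ATP synthase, or complex V, takes MT-ATP6 and MT-ATP8 from this chromosome, and both are read from the same mRNA. In shFITM2 cells the counts of MT-ATP6 fell and those of MT-ATP8 rose. MT-ATP6 (ENSG00000198899, MT:8527-9207), the subunit of the proton channel, had 6169, 6448 and 6421 CPM in shFITM2 cells, against 11927, 10876 and 8103 CPM in shCTRL cells. Every shFITM2 library was lower, and the log2 fold change was -0.70 ± 0.129 (SE, n = 3 each; edgeR adjusted p = 0.00326) and -0.49 under the GC offset (adjusted p = 0.0267). MT-ATP8 (ENSG00000228253, MT:8366-8572), a small subunit of the stator, had 15.5, 11.5 and 11.2 CPM in shFITM2 cells, against 5.56, 6.43 and 7.09 CPM in shCTRL cells. All shFITM2 libraries were higher, with a log2 fold change of 1.01 ± 0.163 (edgeR adjusted p = 0.000546) and 1.39 under the GC offset (adjusted p = 3.41e-05). This call held under all 25 alternatives run.

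The level of MT-ATP8 is low for a gene that shares its mRNA with MT-ATP6. It rested on 190 to 283 reads in shFITM2 libraries and 105 to 121 reads in shCTRL libraries. Per base, MT-ATP6 had 121 to 653 times as many counts as MT-ATP8, depending on the library. The log2 ratio of MT-ATP8 to MT-ATP6 counts was -8.64, -9.13 and -9.16 in shFITM2 libraries, against -11.07, -10.72 and -10.16 in shCTRL libraries (exact two-sided permutation test, p = 0.1). How reads that reach into the 46 shared bases, or that span neighbouring genes, were counted is not given in the sources used here. MT-ATP8 is 207 bases long, and the part of such reads in its values was not tested.

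The 2 rRNAs did not pass the test with all libraries. MT-RNR2, the rRNA of the large ribosomal subunit, had 6775, 7061 and 7189 CPM in shFITM2 cells, against 6962, 6635 and 6592 CPM in shCTRL cells. The log2 fold change of MT-RNR2 was 0.06 ± 0.0564 (SE, n = 3 each; edgeR adjusted p = 0.415), whereas the GC offset gave 0.32 (adjusted p = 9.94e-05). MT-RNR1, the rRNA of the small subunit, had 627, 662 and 715 CPM in shFITM2 cells, against 540, 448 and 667 CPM in shCTRL cells. The groups overlapped through shCTRL 3. The log2 fold change of MT-RNR1 was 0.28 ± 0.135 (edgeR adjusted p = 0.126) and 0.43 without shCTRL 3 (adjusted p = 0.00205).

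**Figure D3:**
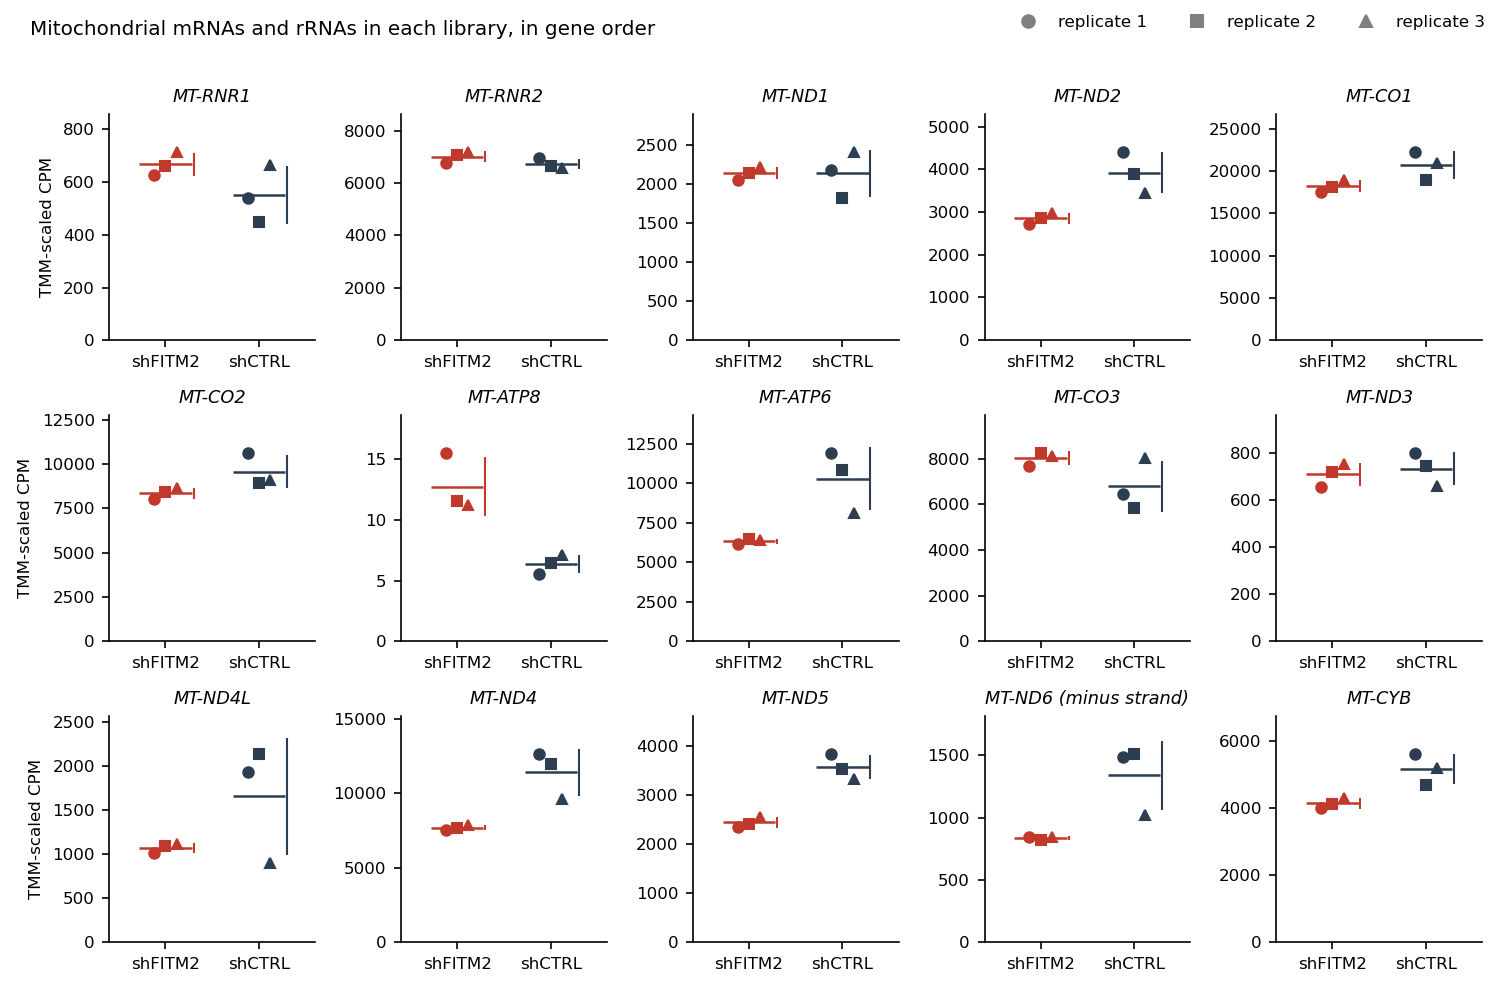
TMM-scaled CPM of the 13 mRNAs and 2 rRNAs in each library, in gene order, with shFITM2 left of shCTRL; symbols are replicates, lines are means and bars are SDs, and each vertical axis starts at 0. The shFITM2 libraries lie close together in most panels, while shCTRL 3 lies nearer to the shFITM2 libraries than the other shCTRL libraries do for MT-ATP6, MT-CO3 and MT-ND4 and below all of them for MT-ND4L.

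Levels of different genes in these libraries were compared per kilobase of gene. Whether poly(A) RNA was selected or ribosomal RNA removed was not given, nor how reads over shared bases were counted. The order is therefore one of counts and is not taken as the order of RNA amounts in the cells, least of all for the rRNAs against the mRNAs. In shFITM2 cells the order began with MT-CO2 at 12223 ± 463, MT-CO1 at 11800 ± 470 and MT-CO3 at 10239 ± 374 CPM per kilobase (SD, n = 3). In shCTRL cells it began with MT-ATP6 at 15128 ± 2901, MT-CO2 at 13967 ± 1361 and MT-CO1 at 13461 ± 1078 CPM per kilobase, with MT-CO3 next at 8658 ± 1434 (SD, n = 3). Within each group MT-CO1 and MT-CO2 differed by less than their SDs, and in shCTRL cells so did MT-ATP6 and MT-CO2. These SDs are between libraries, while the genes were measured in the same libraries. Per base, MT-CO2 had 0.974 to 1.08 times the counts of MT-CO1, depending on the library. MT-ATP6 (681 bases) lay above MT-CO2 (684 bases) in shCTRL 1 and 2 but below it in shCTRL 3, at 8103 against 9077 CPM. In shFITM2 cells MT-ATP6 came after MT-CO2, MT-CO1 and MT-CO3, at 9319 ± 226 CPM per kilobase. MT-ND4 had 5586 ± 135 CPM per kilobase in shFITM2 cells and 8278 ± 1137 in shCTRL cells, where it differed from MT-CO3 by less than their SDs. Per kilobase, MT-ND4 lay above MT-CO3 in shCTRL 1 and 2 but below it in shCTRL 3. The other complex I mRNAs, MT-CYB and MT-RNR2 lay between 1348 and 4495 CPM per kilobase in shFITM2 cells and between 1971 and 5588 CPM per kilobase in shCTRL cells. MT-RNR1 had 700 ± 46.3 CPM per kilobase in shFITM2 cells and 578 ± 115 in shCTRL cells. MT-ATP8 came last of the 15, with 61.6 ± 11.6 CPM per kilobase in shFITM2 cells and 30.7 ± 3.71 in shCTRL cells.

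The makeup of the mitochondrial mRNA pool was compared next, as the share of its counts held by each mRNA, which does not depend on scaling between libraries. The 13 shares sum to the whole pool, so they are not independent of each other. MT-CO3 held 12.7%, 13.1% and 12.5% in shFITM2 libraries, against 7.69%, 7.81% and 11.0% in shCTRL libraries. MT-ATP6, which lies just before it and shares 1 base with it, held 10.2%, 10.2% and 9.91% in shFITM2 libraries, against 14.2%, 14.5% and 11.1% in shCTRL libraries. MT-ND4 held 12.3% ± 0.146 in shFITM2 cells and 14.7% ± 1.37 in shCTRL cells (SD, n = 3 each). MT-CO3 and MT-ATP6 thus changed places in the order of shares between the groups, with every shFITM2 library on one side. The log2 ratio of MT-ATP6 to MT-CO3 counts was -0.32, -0.36 and -0.34 in shFITM2 libraries, against 0.88, 0.89 and 0.01 in shCTRL libraries, so shCTRL 3 lay between the shFITM2 libraries and its own group.

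Of the 13 shares, 10 did not overlap between the groups, each with p = 0.1 and 0.13 after Benjamini-Hochberg adjustment over the 13 (exact two-sided permutation test). By CPM, a different measure, the groups did not overlap for 59% of all tested genes. The share of MT-ND1 was 3.40% ± 0.0164 in shFITM2 cells and 2.77% ± 0.470 in shCTRL cells (SD, n = 3 each, as for the shares that follow). MT-CO2 held 13.3% ± 0.0819 in shFITM2 cells and 12.3% ± 0.351 in shCTRL cells, and MT-ND3 held 1.12% ± 0.0418 in shFITM2 cells and 0.946% ± 0.0432 in shCTRL cells. These 3 shares, like that of MT-CO3, were higher in every shFITM2 library. MT-ND2 held 4.53% ± 0.0526 in shFITM2 cells and 5.05% ± 0.275 in shCTRL cells. MT-ND5 held 3.89% ± 0.0650 in shFITM2 cells and 4.62% ± 0.0922 in shCTRL cells, and MT-ND6 held 1.33% ± 0.0565 in shFITM2 cells and 1.72% ± 0.306 in shCTRL cells. These 3, like MT-ATP6 and MT-ND4, were lower in every shFITM2 library. MT-ATP8 held 0.0204% ± 0.00455 in shFITM2 cells and 0.00830% ± 0.00158 in shCTRL cells. The shares of MT-CO1, MT-CYB and MT-ND4L overlapped, with p of 0.2, 0.7 and 0.4. MT-CO1 was the largest in every library, at 28.96% ± 0.305 in shFITM2 cells and 26.9% ± 1.80 in shCTRL cells.

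Pairs that are cut from one RNA or lie side by side were also compared by their log2 ratio of counts. MT-CO1 to MT-CO2 was 1.12 ± 0.0208 in shFITM2 cells and 1.12 ± 0.0786 in shCTRL cells (exact two-sided permutation test, p = 1). MT-ND4L to MT-ND4, which share an mRNA, was -2.89, -2.81 and -2.82 in shFITM2 libraries, against -2.71, -2.48 and -3.42 in shCTRL libraries (exact permutation test, p = 1). The shCTRL libraries lay on both sides of the shFITM2 libraries in that ratio, with shCTRL 3 the lowest of the 6. MT-RNR2 to MT-RNR1 was 3.39 ± 0.0554 in shFITM2 cells and 3.63 ± 0.297 in shCTRL cells (exact permutation test, p = 0.4). MT-ND6 to MT-ND5, neighbours on opposite strands, was -1.54 ± 0.0646 in shFITM2 cells and -1.44 ± 0.243 in shCTRL cells (SD, n = 3 each; exact permutation test, p = 0.6).

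Of the 22 tRNA genes, 12 had 0 to 15 reads per library and were not tested. The 4 with the most reads, MT-TC, MT-TY, MT-TN and MT-TP, are all encoded on the minus strand. Mature tRNAs are short and heavily modified, and the reads of a tRNA gene can come from a mature tRNA or from a longer RNA not yet cut, which these counts do not separate. Antisense plus-strand RNA over the same bases cannot be told apart from them either, since the strand setting of the counting is not given.

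MT-TC (ENSG00000210140, MT:5761-5826), the cysteine tRNA, had the largest log2 fold change of the tested mitochondrial genes. It had 121, 118 and 101 CPM in shFITM2 cells, against 24.1, 17.4 and 39.6 CPM in shCTRL cells. All shFITM2 libraries were higher, and the log2 fold change was 2.07 ± 0.305 (SE, n = 3 each; edgeR adjusted p = 0.00326) and 2.21 under the GC offset (adjusted p = 0.0135). With the GC offset the call ended when shFITM2 1, shFITM2 2 or shCTRL 1 was left out, at adjusted p of 0.0572 to 0.0629 and log2 fold changes of 2.13 to 2.18. Of the 25 alternatives run, 21 kept the MT-TC call.

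MT-TY (MT:5826-5891), the tyrosine tRNA whose last base is the first of MT-TC, had 46.4, 52.6 and 46.4 CPM in shFITM2 cells, against 9.47, 5.83 and 43.8 CPM in shCTRL cells. The groups did not overlap, but shCTRL 3 lay just below the shFITM2 libraries. Its log2 fold change was 1.31 ± 0.819 with all libraries (SE, n = 3 each; edgeR adjusted p = 0.257) and 2.65 without shCTRL 3 (adjusted p = 4.24e-14). For MT-TY too, the smaller p-value leaves out the spread of shCTRL 3 and is not taken as evidence of a rise. MT-TN (MT:5657-5729), the asparagine tRNA beyond MT-TC, had 39.0, 41.9 and 33.7 CPM in shFITM2 cells, against 37.0, 45.9 and 11.0 CPM in shCTRL cells. Here shCTRL 3 was the lowest of the 6 and the others overlapped. The log2 fold change of MT-TN was 0.28 ± 0.530 (edgeR adjusted p = 0.694) and turned to -0.12 without shCTRL 3. MT-TC, MT-TY and MT-TN lie side by side on the same strand, and their values over the 6 libraries differed from gene to gene. The log2 ratio of MT-TC to MT-TN was 1.63, 1.50 and 1.58 in shFITM2 libraries, against -0.62, -1.39 and 1.85 in shCTRL libraries (exact two-sided permutation test, p = 0.4).

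MT-TP (MT:15956-16023), the proline tRNA that is first on the minus strand after the control region, had 37.8, 39.2 and 40.8 CPM in shFITM2 cells, against 74.7, 81.6 and 32.0 CPM in shCTRL cells. Its log2 fold change was -0.68 ± 0.367 with all libraries (SE, n = 3 each; edgeR adjusted p = 0.190) and -1.001 without shCTRL 3 (adjusted p = 1.77e-15). Here again the smaller p-value leaves out the spread of shCTRL 3 and is not taken as evidence of a fall. As for MT-TY and MT-ND4L, shCTRL 3 lay nearer to the shFITM2 libraries than to its own group. MT-TE (MT:14674-14742), the glutamate tRNA next to MT-ND6, fell on few reads: 10, 11 and 6 in shFITM2 libraries, against 23, 16 and 19 in shCTRL libraries. On the log2 scale the change was -1.05 ± 0.400 (edgeR adjusted p = 0.0482). That call ended under the GC offset (-0.66; adjusted p = 0.279) and when any single library was left out (adjusted p = 0.0513 to 0.149).

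The other 5 tested tRNAs lie on the plus strand and none passed the test with all libraries. MT-TL1, a leucine tRNA that follows MT-RNR2, had 67 to 104 reads per library and a log2 fold change of 0.24 ± 0.224 (SE, n = 3 each; edgeR adjusted p = 0.395), but 0.51 without shCTRL 3 (edgeR adjusted p = 0.0353). MT-TV, MT-TI, MT-TM and MT-TT had 2 to 56 reads per library, and their log2 fold changes were 0.98, 0.0014, -0.43 and -0.27. Without shCTRL 3, MT-TV had 2.56 (edgeR adjusted p = 0.00683), against 2 shCTRL libraries with 2 reads each. On the plus strand as a whole 1 of 19 tested genes rose and 7 fell, and on the minus strand 1 of 6 rose and 2 fell. For comparison, 24.2% of all tested genes rose and 24.5% fell, and 41.1% of nuclear genes of like GC content fell.

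**Figure D4:**
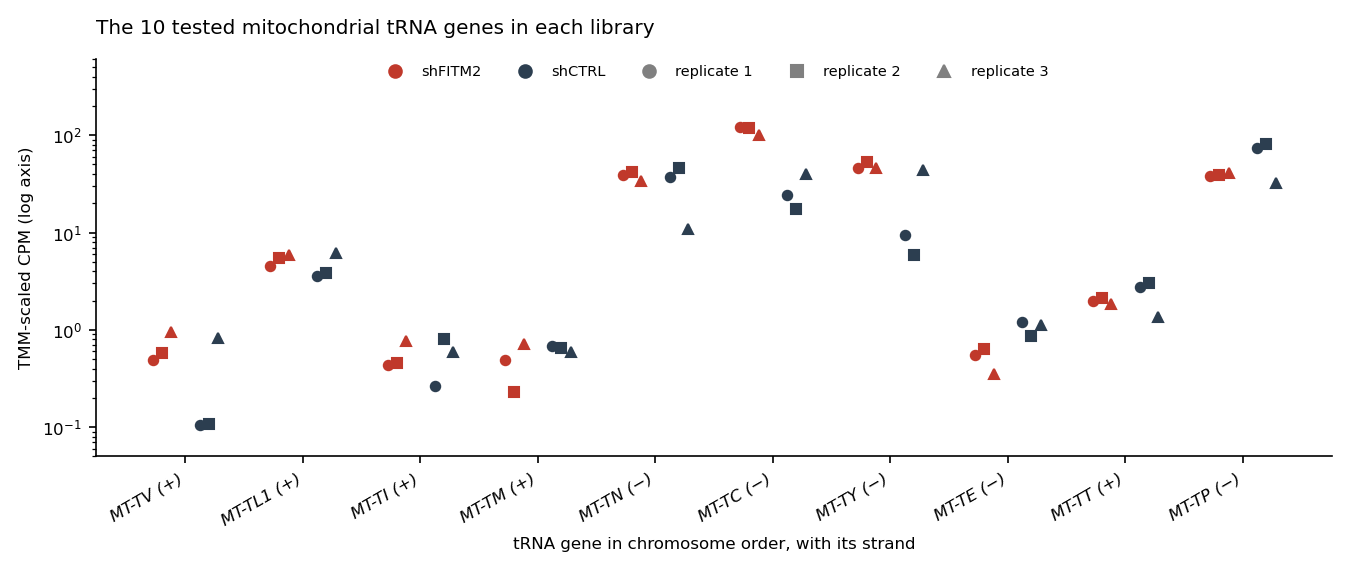
TMM-scaled CPM (log axis) of the 10 tested tRNA genes in each library, in chromosome order with the strand in brackets; red is shFITM2 and blue shCTRL, and circles, squares and triangles are replicates 1, 2 and 3. MT-TC shows 101 to 121 CPM in shFITM2 libraries, above all shCTRL libraries, while the triangle of shCTRL 3 lies away from the other shCTRL points for MT-TN, MT-TY and MT-TP.

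By position, log2 fold changes were higher near the start of the chromosome and lower toward its end. Over the 15 mRNAs and rRNAs, the Spearman correlation between start position and log2 fold change was -0.58, and -0.61 for the fold changes under the GC offset. These 15 values come from the same 6 libraries and neighbouring genes share RNAs, so the correlation is a description. The same measure gave 0.125 for GC content, -0.00357 for length and -0.32 for the mean level in shCTRL cells. The order was not smooth. From MT-RNR1 to MT-ND1 the values lay between 0.0022 and 0.28, MT-ND2 was at -0.46, and MT-ATP8 and MT-CO3 stood above 0 on either side of MT-ATP6. From MT-ND4L to MT-CYB all 5 values lay between -0.67 and -0.32, and 4 of these genes passed the test. For comparison, 24.5% of all tested genes and 41.1% of nuclear genes of like GC content fell. Of the 13 mRNAs, 6 end without a complete stop codon in the DNA and gain it through the poly(A) tail. Of those 6, MT-ND2, MT-ND4 and MT-CYB fell and MT-ND1, MT-CO3 and MT-ND3 did not pass. Of the other 7, MT-CO1, MT-CO2, MT-ATP6, MT-ND5 and MT-ND6 fell, MT-ATP8 rose and MT-ND4L did not pass.

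The position of shCTRL 3 was described gene by gene. On the scale from the mean of shCTRL 1 and 2 to the mean of shFITM2, shCTRL 3 lay past the midpoint for 8 of the 15 mRNAs and rRNAs (53.3%). It did so for 41.6% of all 14809 tested genes. For MT-RNR1 and MT-CO3 it lay at the shFITM2 mean, and for MT-CO1, MT-CYB, MT-ND5 and MT-ATP8 nearer to its own group. Without shCTRL 3, edgeR's quasi-likelihood test called 18 mitochondrial genes, 7 higher and 11 lower, against 59% of all genes tested. The genes that passed in that fit and not with all libraries were MT-CO3, MT-RNR1, MT-TY, MT-TV and MT-TL1 above 0, and MT-ND3, MT-ND4L and MT-TP below it.

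**Figure D5:**
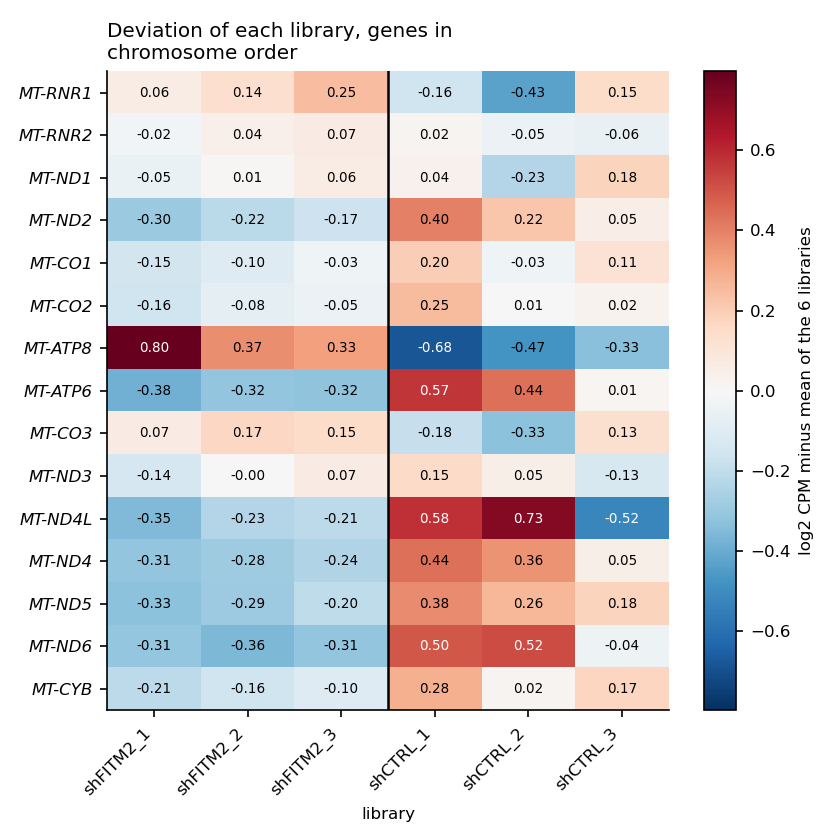
Log2 CPM minus the mean of the 6 libraries for the 13 mRNAs and 2 rRNAs, in chromosome order, with the shFITM2 libraries left of the shCTRL libraries; red is above and blue below the mean. The shFITM2 columns look alike, and shCTRL 3 departs from the other shCTRL columns at MT-ND4L (-0.52), MT-CO3 (0.13) and MT-RNR1 (0.15).

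Nuclear genes that transcribe, process and maintain the mitochondrial chromosome were described from 5 lists with 69 genes. Of the 68 tested, 35 fell in shFITM2 cells, 10 rose and 23 did not pass (edgeR's quasi-likelihood test), where 24.5% of all tested genes were called lower and 24.2% higher. Their median log2 fold change was -0.28. With the GC offset 28 were called lower and 2 higher (17.5% and 11.7% of all tested genes), with a median of -0.21; both fits called 18 lower and 2 higher. POLRMT, FASTK and POLG were called higher in the first fit and lower with the offset, so their direction depends on it.

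For transcription, 7 of 10 genes fell and 2 rose (24.5% and 24.2% of all tested genes), and 4 were called lower under the GC offset (17.5% of all). TFAM, which packages the chromosome and starts transcription, had 89.6, 98.2 and 93.7 CPM in shFITM2 cells, against 148, 168 and 126 CPM in shCTRL cells. Its groups did not overlap, and the log2 fold change was -0.65 ± 0.0973 (SE, n = 3 each; edgeR adjusted p = 0.000347) and -0.23 under the GC offset (adjusted p = 0.00771). TFB2M, which opens the promoters, fell by 0.54 on the log2 scale and MTERF3, a regulator of transcription, by 0.74, and both kept their calls with the offset. MTERF1, which binds within the leucine tRNA gene beyond the rRNAs, fell by 0.73 and did not pass with the offset (adjusted p = 0.0571). POLRMT, the polymerase, had 83.0, 83.6 and 81.8 CPM in shFITM2 cells, against 60.1, 53.1 and 79.7 CPM in shCTRL cells. Its log2 fold change was 0.37 ± 0.129 (edgeR adjusted p = 0.0394), but -0.46 under the GC offset (adjusted p = 3.27e-05).

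For processing, stability and decay of the RNAs, 12 of 22 genes fell and 2 rose (24.5% and 24.2% of all tested genes). The GC offset called 13 lower and 1 higher (17.5% and 11.7% of all). LRPPRC, which binds and stabilises most mitochondrial mRNAs, had 242, 246 and 252 CPM in shFITM2 cells, against 409, 441 and 336 CPM in shCTRL cells. Its log2 fold change was -0.68 ± 0.0903 (SE, n = 3 each; edgeR adjusted p = 0.000186) and -0.40 under the GC offset. SLIRP, its partner, had 29.9, 31.5 and 29.97 CPM in shFITM2 cells, against 34.2, 39.0 and 23.4 CPM in shCTRL cells, and did not pass (log2 fold change -0.08; edgeR adjusted p = 0.698). FASTKD2, which acts on the large-subunit rRNA and MT-ND6 RNA, fell by 0.88. PNPT1, the exonuclease of the RNA degradosome, fell by 0.81, FASTKD3, an RNA-binding regulator, by 0.75 and PTCD3, a protein of the small ribosomal subunit, by 0.62. All 4 kept their calls with the offset, at log2 fold changes of -0.49 to -0.34.

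The 3 other lists stand against the same shares of all tested genes: 24.5% lower and 24.2% higher, and 17.5% lower and 11.7% higher under the GC offset. For modification of tRNAs, 5 of 13 genes fell and 2 rose, and 3 were called lower under the GC offset. ALKBH1, a dioxygenase that modifies mitochondrial tRNAs, fell by 0.60 and kept its call with the offset at -0.42. TRNT1, which adds the CCA end to tRNAs (-0.48), QTRT2, a subunit of the queuine transferase (-0.36), and GTPBP3, which modifies the wobble base (0.49), lost theirs. For replication and maintenance of the chromosome, 6 of 16 genes fell and 3 rose, and the offset called 4 lower and 1 higher. SUCLG1, a subunit of succinyl-CoA ligase, fell by 0.26 and kept its call with the offset. SUCLA2, its partner in the enzyme (-0.39), RRM2B, a subunit of ribonucleotide reductase (-0.50), and SSBP1, the single-strand DNA-binding protein (-0.27), lost theirs. Among 7 tested regulators of mitochondrial biogenesis 5 fell and 1 rose, and the offset called 4 lower and 0 higher. Both fits called 4 lower. GABPA, a factor that binds promoters of nuclear respiratory genes, fell by 0.72 and YY1, a transcription factor, by 0.29, and both kept their calls with the offset. GABPB1, the partner of GABPA, fell by 0.63 and did not pass with the offset (edgeR adjusted p = 0.0518). ESRRA, a nuclear receptor, rose by 0.69 and had -0.02 with the offset. PPARGC1A, the coactivator that drives biogenesis in muscle and brown fat, had 2 to 10 reads per library and was not tested.

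Copies of mitochondrial genes in the nuclear chromosomes can take reads from the originals. The table names 407 such pseudogenes, and their counts together came to 0.968% to 1.19% of the mitochondrial counts in every library. Most of these counts lay on MTATP6P1, with 6962 to 10566 reads per library, and MTND2P28, with 4244 to 7745. Their originals had 109033 to 225431 reads per library for MT-ATP6 and 49499 to 83300 for MT-ND2, so the part is larger there. MTATP6P1 (chromosome 1), 98.5% identical to MT-ATP6, had 382, 443 and 518 CPM in shFITM2 cells, against 559, 496 and 565 CPM in shCTRL cells, and a log2 fold change of -0.27 (edgeR adjusted p = 0.0534). MTND2P28 (chromosome 1), 98.2% identical to MT-ND2, had a log2 fold change of -0.59 (edgeR adjusted p = 0.000508), and MTND4P12 (chromosome 5), 95.6% identical to MT-ND4, one of -0.71 (adjusted p = 0.0193). MTCO1P12 (chromosome 1), 98.6% identical to MT-CO1, had 41.0, 37.8 and 42.3 CPM in shFITM2 cells, against 17.9, 15.1 and 35.9 CPM in shCTRL cells (log2 fold change 0.82; edgeR adjusted p = 0.0956). Reads that match a copy and its original equally cannot be assigned with certainty, and how they were counted is not given. Adding the pseudogene counts to the originals left 2 mitochondrial genes called higher and 9 lower.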

How the data were processed

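The authors deposited a single table of raw read counts per gene for the 6 libraries, 1 column each. Per the submitters' processing notes, HISAT2 2.0.5, StringTie 1.3.3b, featureCounts 1.5.0-p3, DESeq2 1.16.1 and hg19 were used. The table's positions for all 37 mitochondrial genes are those of GENCODE release 29 on GRCh38. The strand, multi-mapping and overlap settings of the counting were not given in the sources used here. Any of them can move the counts of overlapping genes, antisense genes and genes with nuclear copies.

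The titles of the samples give the group and replicate number. The labels do not state that replicates are separate cultures. The p-values therefore set the difference between groups against the spread of these libraries, which may be technical alone. No pair of replicates agreed within sampling noise by a chi-square of counts. Same-numbered libraries did not deviate together, so the numbers were not taken to pair them.

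The whole table was tested with edgeR 4.0.16 (limma 3.58.1, R 4.3.3): TMM, robust quasi-likelihood F-test with group as the sole term, and Benjamini-Hochberg adjustment over 14809 genes. Genes passed edgeR's expression filter (count of 10, total of 15) and were called at an adjusted p under 0.05. CPM values use TMM library sizes. A second fit added a gene-by-library offset, a smoothing spline with 6 degrees of freedom on the GC content of 1 transcript per gene, for 14635 genes. A true change that tracks GC content is removed with it. Shares and log2 ratios of counts had exact two-sided permutation tests over 20 arrangements, which cannot go below 0.1. The scripts were tested on simulated data.

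The genes named are all mRNAs and rRNAs, the tested tRNAs, FITM2, the 4 pseudogenes with the most counts, up to 4 called members with the smallest p of each nuclear list, and POLRMT, TFAM, LRPPRC and SLIRP. FASTK, POLG and PPARGC1A were added after their values were seen. The members and lists were chosen with earlier results of these data known. Alternatives were other scalings and filters, DESeq2 1.42.0, limma-voom, the replicate number as a block, GC and length offsets, library size from the mitochondrial mRNAs, pseudogene counts added to the originals, and each library left out in turn.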

Additional observations from a re-analysis of the deposited data

How the results depend on the processing

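MT-ATP8, MT-ND4 and MT-ND5 kept their direction and call under all 25 alternatives run, and FITM2 under all 23. Of the mitochondrial genes, 11 were called: 2 higher and 9 lower. Leaving out each library in turn gave 8 to 18 calls, 2 to 7 higher and 6 to 11 lower, with 18 calls when shCTRL 3 was the library left out. With no filter on low counts 5 were called higher. The GC offset gave 4 higher and 5 lower, the GC and length offset 4 higher and 5 lower, and library size from the 13 mitochondrial mRNAs 7 higher and 4 lower, with a median of all genes at 0.30. The GC and length offset, and the GC offset with each library left out in turn, were chosen after seeing the data; the second gave 5 to 17 calls, 3 to 10 higher and 2 to 7 lower, 17 of them without shCTRL 3. DESeq2's Wald test called 2 higher and 6 lower, and ended the calls of MT-CO1, MT-CO2 and MT-TE.

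No label says that the replicate numbers pair the libraries, and same-numbered libraries did not deviate together (correlations -0.0412, -0.00656 and -0.0653). With the replicate number as a block 3 mitochondrial genes were called higher and 6 lower, and with the block and the GC offset 6 higher and 6 lower.

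Of the nuclear genes for mitochondrial gene expression 45 were called, 35 to 52 with a library left out and 21 to 39 with the GC offset and a library left out. Those called higher numbered 10, but 2 with the GC offset, 3 with the block and the GC offset, 1 with the GC and length offset, 5 to 10 with a library left out and 0 to 5 with both. Those called lower numbered 35, 30 to 42 with a library left out, and 21 to 34 with the GC offset as well.

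Among mitochondrial genes, directions turned for those that did not pass the test, and for MT-CO1 and MT-CO2. Some called nuclear genes turned too, among them POLRMT, FASTK and POLG under the GC offset. MT-ND1 was -0.0024 with library totals, -0.00056 with the GC and length offset, -0.11 to 0.091 with a library left out and -0.063 to 0.15 with the GC offset as well. MT-TI was -0.0046 with library totals, -0.34 to 0.38 with a library left out and 0.31 to 0.92 with the GC offset as well. MT-ND3 was 0.31 with the GC offset, 0.31 with the block as well, 0.18 with the GC and length offset, 0.25 with the mitochondrial library size, -0.13 to 0.012 with a library left out and 0.28 to 0.37 with the GC offset and a library left out. MT-TT was 0.17 with the GC offset, 0.21 with the block as well, 0.036 with the mitochondrial library size, -0.55 to -0.071 with a library left out and -0.056 to 0.33 with the GC offset and a library left out. The mitochondrial library size also gave 0.11 for MT-CO1 and 0.11 for MT-CO2. With a library left out MT-TN ran from -0.12 to 0.65, MT-TM from -0.81 to -0.10 and MT-TP from -1.001 to -0.45. With the GC offset as well MT-TN ran from 0.26 to 0.97, MT-TM from -0.65 to 0.041 and MT-TP from -0.39 to 0.042. The difference in the MT-CYB share of mitochondrial mRNA counts ran from -0.31 to 0.12 percentage points. The cause of these shifts was not tested. The 12 tRNAs with 0 to 15 reads, and MT-TE, lie near what these depths can resolve.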
